A study of Mus musculus with 2 samples.

Results

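The genes described here make, load and switch on the molecules that present peptides to T cells. They are 10 genes of 42462 that could be named by symbol in both deposited gene tables, and they were taken by symbol: 5 of the class I pathway (H2-K1, H2-D1, B2m, Tap1 and Nlrc5) and 5 of the class II pathway (Cd74, H2-Aa, H2-Ab1, H2-Eb1 and Ciita). Both libraries were total RNA, longer than 200 nt, from the intestine of healthy B6NCrl mouse embryos at embryonic day 16.5, with no treatment or genetic change named in the labels. Male and female embryos were pooled, 41 of them for replicate 2 and an unstated number for replicate 1. The labels name the pools as separate biosamples but list the same donor for both. There is thus 1 group of 2 libraries, 10 ng of RNA went into each, and the comparisons are between genes and between the pools.

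Nearly every nucleated cell can carry class I molecules, in which a polymorphic heavy chain pairs with beta-2-microglobulin and holds a peptide cut by the proteasome and moved into the endoplasmic reticulum by the TAP transporter. Class II molecules pair an alpha and a beta chain, are guided by the invariant chain Cd74 to endosomes, and are made mainly by dendritic cells, macrophages and B cells, and by other cells under interferon gamma. Nlrc5 and Ciita are related co-activators that bind no DNA by themselves and act through RFX, CREB and NF-Y on a shared promoter module of class I and class II genes.

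Class I chains were abundant and class II chains were present at a lower level, while both co-activators were below a TPM of 1. Levels are in TPM, a measure of transcript abundance that corrects for transcript length and so allows genes to be compared, and they are given as mean ± SD over the 2 libraries. Of the 10 genes, 8 were detected, meaning a TPM of at least 1 in both libraries, namely 4 of 5 in each class. Over all 21474 protein-coding genes that share was 62.0%. In CPM, which does not correct for length, 9 of the 10 reached a value of 1, the addition being Ciita with its long transcript. The 5 class I genes summed to 743 TPM in replicate 1 and 830.0 in replicate 2, and the 5 class II genes to 91.7 and 100.1. For comparison, the median protein-coding gene stood at 4.46 and 4.44 TPM, and the median detected one at 17.01 and 17.23. In bulk tissue such as this, fewer cells of a type and less RNA per cell cannot be told apart.

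**Figure D1:**
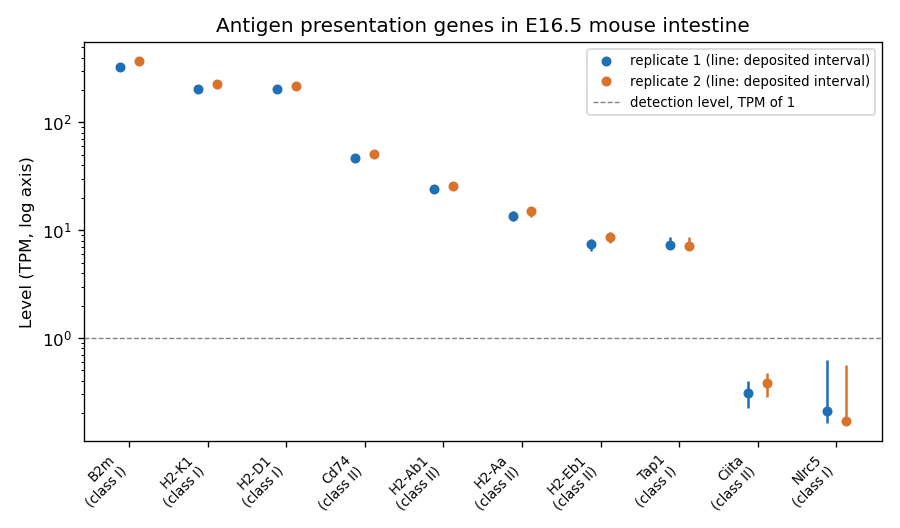
Level of each of the 10 genes in TPM on a log axis, in the order of the mean, with replicate 1 in blue and replicate 2 in orange; vertical lines are the intervals deposited with the values and the dashed line is a TPM of 1. B2m, H2-K1 and H2-D1 lie above 200 in both libraries, the class II chains between 7.42 and 25.6, and Ciita and Nlrc5 below 0.4.

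The order of levels was B2m, H2-K1, H2-D1, Cd74, H2-Ab1, H2-Aa, H2-Eb1, Tap1, Ciita and Nlrc5. Neighbours were called apart when their log2 ratio had the same sign in both libraries and its mean exceeded 3 SD, and 6 of 9 neighbouring steps met this. The 3 that did not were H2-K1 over H2-D1 (log2 ratio 0.03 ± 0.056), H2-Eb1 over Tap1 (0.15 ± 0.171) and Ciita over Nlrc5 (0.86 ± 0.423). These calls rest on the length correction: in CPM all 3 were apart, at -0.30, -1.16 and 1.64, the first 2 in the opposite direction. No test is attached to these calls, because with 2 libraries the smallest two-sided sign-flip p is 0.5. The widest step between neighbours was the 21.1-fold drop from Tap1 to Ciita.

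RefSeq promoter entries on GRCm38.p6 were given for 6 of the genes, and those of 2 class I and 2 class II genes are printed to show where parts of that module lie. The windows of H2-D1 and Tap1 overlap annotated UTRs and were searched but not printed. Each runs 5′ to 3′ on the gene's strand and ends at the base before the annotated start, which for H2-K1 is the upstream one of 2. Capitals mark, on either strand, TGACG (the half-site of a cAMP response element, bound by CREB), ATTGG (the Y box core, bound by NF-Y), GGGGATTCC (a kB site, bound by NF-kB) and AANNGAAA (an interferon response core). In H2-Aa a TGACG on each strand overlaps the other.
H2-K1 (chr17:34000348-34000517, minus strand): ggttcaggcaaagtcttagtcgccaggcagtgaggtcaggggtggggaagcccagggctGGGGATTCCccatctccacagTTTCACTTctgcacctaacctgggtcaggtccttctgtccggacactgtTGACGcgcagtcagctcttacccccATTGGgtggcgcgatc
B2m (chr2:122147517-122147685, plus strand): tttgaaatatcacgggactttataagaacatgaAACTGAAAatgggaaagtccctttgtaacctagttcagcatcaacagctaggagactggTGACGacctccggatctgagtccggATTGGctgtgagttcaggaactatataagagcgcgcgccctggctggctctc
H2-Aa (chr17:34287824-34287993, minus strand): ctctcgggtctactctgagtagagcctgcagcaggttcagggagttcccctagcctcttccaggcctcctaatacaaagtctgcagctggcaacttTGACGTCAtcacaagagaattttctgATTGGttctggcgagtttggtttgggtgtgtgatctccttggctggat
H2-Eb1 (chr17:34305697-34305866, plus strand): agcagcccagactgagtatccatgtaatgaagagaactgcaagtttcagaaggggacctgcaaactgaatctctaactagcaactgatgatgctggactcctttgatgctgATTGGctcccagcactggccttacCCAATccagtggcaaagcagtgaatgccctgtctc

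In 4 of the 6 genes, with the upstream start used for H2-K1, TGACG was followed by ATTGG at nearly the same distance. The TGACG lay 41 bases upstream of the start in H2-K1, 101 in H2-D1, 78 in B2m and 74 in H2-Aa, and the ATTGG began 25 bases further on in H2-K1, H2-D1 and B2m and 26 bases further on in H2-Aa. Of 32851 RefSeq promoters, 0.381% held this pair in the same order at 20 to 30 bases on either strand, whereas 33.8% held ATTGG and 17.8% held TGACG within 250 bases. H2-Eb1 held ATTGG 59 bases upstream and its reverse, CCAAT, at 35, with no TGACG in the window. Tap1 held TGACG at 86 and CCAAT at 222. The kB site occurred in H2-K1, at 111, and in H2-D1, at 171, and in 0.213% of all promoters. The interferon response core, present in 21.3% of promoters, occurred in H2-K1 at 90, H2-D1 at 150, B2m at 137 and H2-Aa at 213. The H2-Aa match lies outside the 170 bases printed. The motifs were chosen with these sequences in view, so the matches are a description.

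The 2 classical heavy chains were not apart in TPM, whereas in CPM H2-D1, the longer transcript, was above. H2-K1 (ENSMUSG00000061232.11, mm10 chromosome 17, 33996017 to 34000347, minus strand), which presents peptide to CD8 T cells, stood at 203 TPM in replicate 1 and 229.5 in replicate 2 (216 ± 18.8), from 8848 and 9712 expected counts. H2-D1 (ENSMUSG00000073411.7, chromosome 17, 35262730 to 35267499, plus strand), the other classical chain, stood at 204 and 218 TPM (211 ± 10.2), from 11162 and 11655 counts. The libraries place them in opposite order, by 0.996-fold in replicate 1 and 1.05-fold in replicate 2. Both genes stood high among 21474 protein-coding genes, at ranks 731 and 752. Heavy chain genes are near copies of each other, so reads can be misassigned: of the 100-base windows in the main transcript, 0 of 1520 in H2-K1 and 93 of 2003 in H2-D1 (4.64%) recur in another gene, most of the latter in H2-Q1.

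The light chain exceeded each classical heavy chain but not their sum. B2m (ENSMUSG00000060802.8, chromosome 2, 122147686 to 122153083, plus strand), the invariant subunit of every class I molecule, stood at 329 and 375 TPM (352 ± 32.4), from 7369 and 8151 counts. It was 1.63-fold above H2-K1 (log2 0.70 ± 0.00708) and 1.21-fold below H2-K1 and H2-D1 together, and both ratios were apart by the rule. The order of B2m and H2-K1 depends on the length correction, since B2m is the shorter transcript: in counts without length the log2 ratio was -0.26.

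Other class I heavy chains added less than the classical pair but were far from absent. Of 18 class Ib genes, 11 were detected, beside 62.0% of all protein-coding genes. Most encode less variable chains with specialised roles, while H2-T10 and H2-Bl are annotated as polymorphic pseudogenes. The list medians were 2.99 and 3.01 TPM, against 4.46 and 4.44 over all protein-coding genes. H2-Q2 led at 117 and 157 TPM, followed by the secreted chain H2-Q10 at 68.5 and 79.4 and by H2-T3, which encodes the thymus leukaemia antigen found on intestinal epithelium, at 36.2 and 40.0. These 3 genes held 81.0% ± 1.71 of class Ib TPM. H2-M1, H2-M9 and H2-M10.1, chains described mostly from sensory neurons of the nose, had no count in either library, which allows up to 3 counts, or 0.0714 and 0.0723 CPM. In total the classical pair made up 58.3% ± 1.67 of heavy chain TPM, at 427 ± 29.0 against 307 ± 41.8 for class Ib. B2m amounted to 0.481 and 0.478 of the TPM of all these heavy chains, nearly the same ratio in both pools. H2-Q2 shares 10.09% of its 100-base windows with other genes and H2-Q10 2.84%, whereas H2-T3 shares none.

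**Figure D2:**
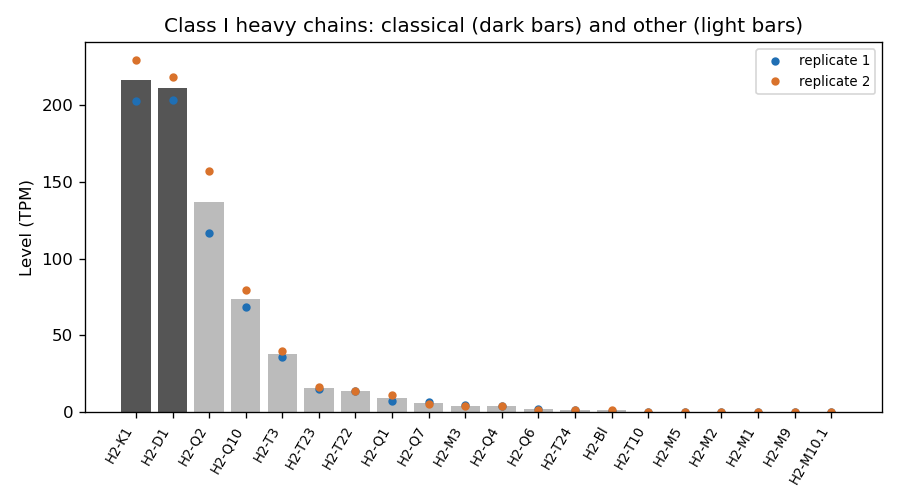
Mean level in TPM of 20 class I heavy chain genes, with bars for the mean (dark for the classical genes, light for class Ib) and points for replicate 1 (blue) and replicate 2 (orange). H2-K1 at 216 and H2-D1 at 211 are followed by H2-Q2 at 137, H2-Q10 at 74.0 and H2-T3 at 38.1.

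Class I-like genes lie outside the H2 names, and several, such as Fcgrt and Cd1d1, pair with B2m as well. Of 7, 5 were detected, with list medians of 10.2 and 9.19 TPM. Fcgrt, the neonatal Fc receptor that carries maternal IgG across the gut wall, stood highest at 276 and 375 TPM. Cd1d1, which presents lipids, stood at 25.9 and 25.5 and the protein C receptor Procr at 17.4 and 17.7. The lowest was Azgp1, a soluble lipid-mobilising protein, at 0.300 ± 0.0141.

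All genes listed for peptide supply were detected, with the transporter low beside the general chaperones and the 3 catalytic immunoproteasome subunits below their standard counterparts. Tap1 (ENSMUSG00000037321.13, chromosome 17, 34187553 to 34197225, plus strand), 1 subunit of the peptide transporter, stood at 7.28 and 7.20 TPM (7.24 ± 0.0566), from 557 and 568 counts. Its partner Tap2 stood at 7.72 and 6.19 (6.96 ± 1.08), and the log2 ratio of Tap1 to Tap2 was 0.07 ± 0.214, not apart. The RefSeq start of Tap1 lies 226 bases from that of Psmb9 on the opposite strand, and in GENCODE M21 the exons of the 2 genes share 212 bases. No source used here says whether the counting used strand, so reads in those bases may have gone to either gene.

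Of the 8 peptide loading genes all were detected, with medians of 38.2 and 41.0 TPM. The general chaperones led, calreticulin (Calr) at 1046 ± 21.4, Pdia3 at 767 ± 12.5 and calnexin (Canx) at 303 ± 9.14, and Tap2 was the lowest. All 5 immunoproteasome genes were detected as well. The activator subunits Psme2 and Psme1 stood at 315 ± 11.5 and 188 ± 3.32 TPM, and the catalytic subunits Psmb10, Psmb8 and Psmb9 at 63.7 ± 2.43, 17.6 ± 0.806 and 11.8 ± 1.29. Each catalytic subunit replaces a constitutive one, and all 3 were below their counterparts by the rule for apart. Psmb9 was 47.0-fold below Psmb6 (553 ± 27.3), Psmb8 was 18.6-fold below Psmb5 (328 ± 22.9), and Psmb10 was 3.08-fold below Psmb7 (196 ± 12.1).

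Nlrc5, the co-activator of class I genes, was the lowest of the 10. Nlrc5 (ENSMUSG00000074151.8, chromosome 8, 94434356 to 94527272, plus strand) stood at 0.21 and 0.17 TPM (0.190 ± 0.0283). These values rest on 16 counts (exact 95% Poisson interval 9.15 to 26.0) and 17 counts (9.90 to 27.2), intervals that cover counting error only. At this depth the libraries cannot be told apart for Nlrc5. The gene's level also depends on how few reads were divided among transcripts: in replicate 1, 52.9% of its TPM came from 2.11 counts on a retained-intron transcript of 735 nt, Nlrc5-206, which had no count in replicate 2. The deposited posterior means were 0.37 and 0.35 TPM. By either value Nlrc5 stayed below the TPM of 1 used for detection.

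All 3 class II chain genes were detected, in the same order in both libraries. H2-Ab1 (ENSMUSG00000073421.5, chromosome 17, 34257689 to 34269419, plus strand), the beta chain of the I-A molecule, stood at 24.04 and 25.61 TPM (24.8 ± 1.11), from 782 and 811 counts. H2-Aa (ENSMUSG00000036594.10, chromosome 17, 34282744 to 34287823, minus strand), its alpha partner, stood at 13.4 and 15.0 (14.2 ± 1.11), from 400 and 412 counts. The beta chain was thus 1.75-fold above the alpha chain (log2 0.81 ± 0.0482), apart by the rule.

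H2-Eb1 (ENSMUSG00000060586.10, chromosome 17, 34305867 to 34316674, plus strand), the beta chain of the I-E molecule, stood at 7.42 and 8.68 TPM (8.05 ± 0.891), from 237 and 269 counts. H2-Ab1 exceeded it 3.09-fold and H2-Aa 1.77-fold, both apart. The alpha chain of I-E, known in this annotation as H2-Ea-ps, had no count in either library. C57BL/6 mice are known to lack a transcribed alpha gene for I-E. Against the classical class I chains, the 3 class II chains were lower by nearly the same factor in both pools, with H2-K1 and H2-D1 together at 9.06-fold and 9.08-fold of their sum (log2 3.18 ± 0.00261). From the expected counts alone, the counting error between libraries was larger, from 0.0723 in log2 for H2-Ab1 to 0.129 for H2-Eb1. That SD is therefore not the precision of the ratio.

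Cd74 was the most abundant class II gene. Cd74 (ENSMUSG00000024610.10, chromosome 18, 60803848 to 60812652, plus strand), the invariant chain, stood at 46.5 and 50.5 TPM (48.5 ± 2.81), from 1579 and 1662 counts. It exceeded H2-Ab1 1.95-fold and H2-Aa 3.41-fold, both apart, and was close to the sum of the 3 chain genes, 44.9 and 49.3 TPM. It was read mainly as the short form. Transcript Cd74-201 (1218 nt), which encodes the p31 form, took 81.5% and 82.3% of the gene, and Cd74-202 (1410 nt), which encodes the p41 form, took 18.5% and 17.7%. The forms differ by a coding exon of 192 bases, or 64 codons, known to encode a thyroglobulin domain that inhibits cathepsins.

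The main transcript was the same in both libraries for 6 of the 7 genes with more than 1 annotated transcript, Nlrc5 being the exception. H2-Ab1-201 took 99.2% ± 0.226 of H2-Ab1, H2-D1-202 took 91.8% ± 0.375 of H2-D1 and H2-K1-201 took 80.0% ± 1.21 of H2-K1, with H2-K1-205 next at 13.6% and 13.3%. Shares were less steady for the remaining pair. H2-Aa-201 took 93.2% in replicate 1 and 76.8% in replicate 2, and the shorter coding transcript H2-Aa-204 (826 nt) took 6.76% and 22.8%, on 19.4 and 71.0 counts. Tap1-206 took 47.1% and 61.5% and Tap1-201, also coding, 41.0% and 32.9%. Transcripts without a coding frame made up 5.28% and 4.60% of H2-K1 and 6.45% and 5.64% of Tap1. B2m, H2-Eb1 and Ciita each had a single transcript in the tables.

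**Figure D3:**
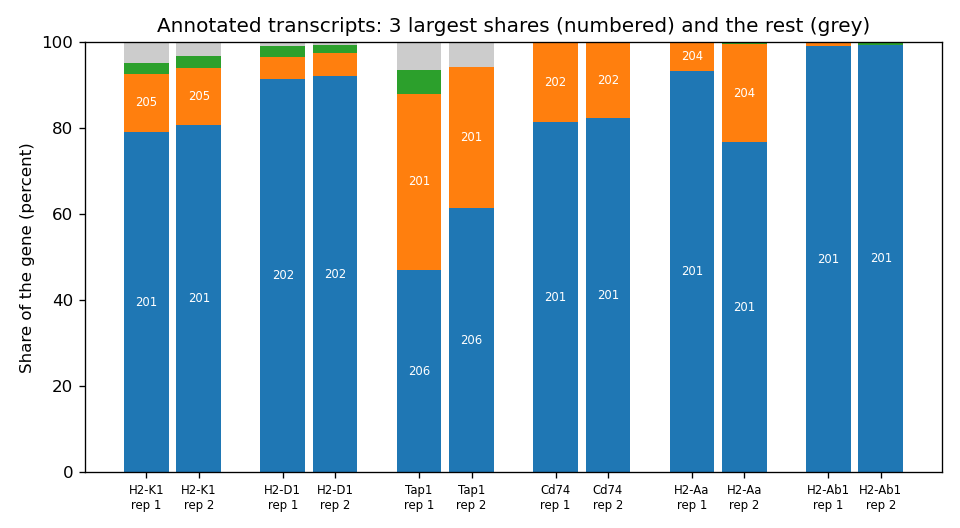
Percent of the gene's TPM held by its annotated transcripts in each library for 6 genes with several transcripts (Nlrc5 is left out for its few counts); colours rank the 3 largest, numbers name the transcript and grey is the rest. The Cd74 bars are alike in both libraries at 81.5% and 82.3% for transcript 201, whereas H2-Aa and Tap1 differ between them.

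Genes that edit, cut and turn over class II peptides were unevenly present. Of 13 matched class II partner genes, 7 were detected, with medians of 2.53 and 3.14 TPM. The lysosomal enzymes led, all of which are used by other cell types too: the thiol reductase Ifi30 at 216 ± 11.1, cathepsin L (Ctsl) at 173 ± 15.3 and legumain (Lgmn) at 82.4 ± 4.74. Cathepsin S (Ctss), which trims the invariant chain in antigen-presenting cells, stood at 29.1 ± 0.686. The peptide editor H2-DM had its alpha gene H2-DMa at 9.13 ± 0.629 and its beta gene H2-DMb1 at 2.84 ± 0.431, a 3.23-fold difference that was apart. H2-DMb1 shares 13.7% of its 100-base windows with its copy H2-DMb2, so the division of reads between these is uncertain.

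Ciita, the co-activator required for class II genes, was below a TPM of 1, though not below 1 in CPM. Ciita (ENSMUSG00000022504.9, chromosome 16, 10480059 to 10528418, plus strand) stood at 0.31 and 0.38 TPM (0.345 ± 0.0495). It rested on 47 counts (exact 95% Poisson interval 34.5 to 62.5) and 56 counts (42.3 to 72.7). In GENCODE M21 its exons share 329 bases with Dexi on the opposite strand, a gene at 2.50 and 5.72 TPM. The counts used the earlier M4, where Ciita-201 has 5254 nt against 6007 in M21. The overlap in the counted annotation may thus be smaller or absent. Ciita and Nlrc5 were not apart in TPM, at a log2 ratio of 0.86 ± 0.423, and by posterior means it was -0.07, whereas in CPM they were apart at 1.64.

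The DNA-binding partners of both co-activators were all detected, 7 of 7, with medians of 16.9 and 16.1 TPM. The NF-Y subunits Nfyc and Nfyb stood highest at 71.7 ± 2.37 and 28.2 ± 2.03, followed by Creb1 at 16.8 ± 0.297, and the RFX subunit Rfx5 was lowest at 4.03 ± 0.467. Even Rfx5 was thus above either co-activator in both libraries.

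Interferon receptors and signal carriers were present, while the 4 interferon genes listed had at most 1 count. Of 19 interferon signalling genes, 15 were detected, with medians of 10.96 and 13.12 TPM. Ifngr1 and Ifngr2, the chains of the interferon gamma receptor, stood at 95.5 ± 4.55 and 94.9 ± 1.21, and Il10rb, shared by the lambda interferon receptor, at 95.2 ± 10.5. Ifnb1, Ifnl2 and Ifnl3 had no count in either library, and Ifng, which encodes interferon gamma, had 0 and 1. Of 16 matched interferon-induced genes, 12 were detected, with medians of 2.59 and 3.08 TPM. The highest were Bst2 (tetherin) at 35.2 ± 2.09, the GTPase Irgm1 at 14.1 ± 0.127 and Ifit1 at 9.99 ± 1.07, and the lowest was the chemokine Cxcl9 at 0.030 ± 0.0141. Of the 3 costimulation genes, Cd40 stood at 7.40 ± 1.27 and Cd86 at 1.78 ± 0.212, and Cd80 was not detected at 0.095 ± 0.0212. Over the 10 lists together, 75 of 99 genes (75.8%) were detected, beside 62.0% of protein-coding genes. Only 94 of the 99 are annotated as protein-coding, so these shares cover unlike sets of genes.

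Markers of the cells that could carry these molecules were measured in the same libraries. The labelled tissue was checked first: 7 of 7 markers of intestinal epithelium were detected, from Lgals4 at 2141 ± 106 TPM to Cdx2 at 37.7 ± 2.39, and 5 of 5 markers of gut mesenchyme, from Acta2 at 1417 ± 74.3 to Pdgfra at 22.5 ± 1.35. All 10 macrophage markers were detected, summing to 278 and 275 TPM, from Lyz2 at 77.1 ± 8.21 to the Fc receptor Fcgr1 at 2.39 ± 0.177. Dendritic cell markers were detected in 3 of 10 cases and summed to 63.0 and 67.1 TPM. Those detected were Irf8, also made by macrophages, at 49.8 ± 3.71, Batf3 at 7.43 ± 0.354 and Zbtb46 at 5.39 ± 0.269. Xcr1 was lowest at 0.015 ± 0.00707. B cell markers were detected in 1 of 5 cases (sum 4.30 and 3.02), with Cd79b highest at 3.14 ± 0.870 and no count of Pax5, the defining factor of the lineage. T cell markers were detected in 0 of 6 cases (sum 2.56 and 2.91), Cd3g being highest at 1.18 ± 0.318 and Cd8a lowest at 0.010 ± 0.0141. All 5 endothelial markers were detected, from Egfl7 at 97.3 ± 5.50 to Tek at 8.26 ± 0.205. The part of each cell type in the class I and class II levels was not tested.

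**Figure D4:**
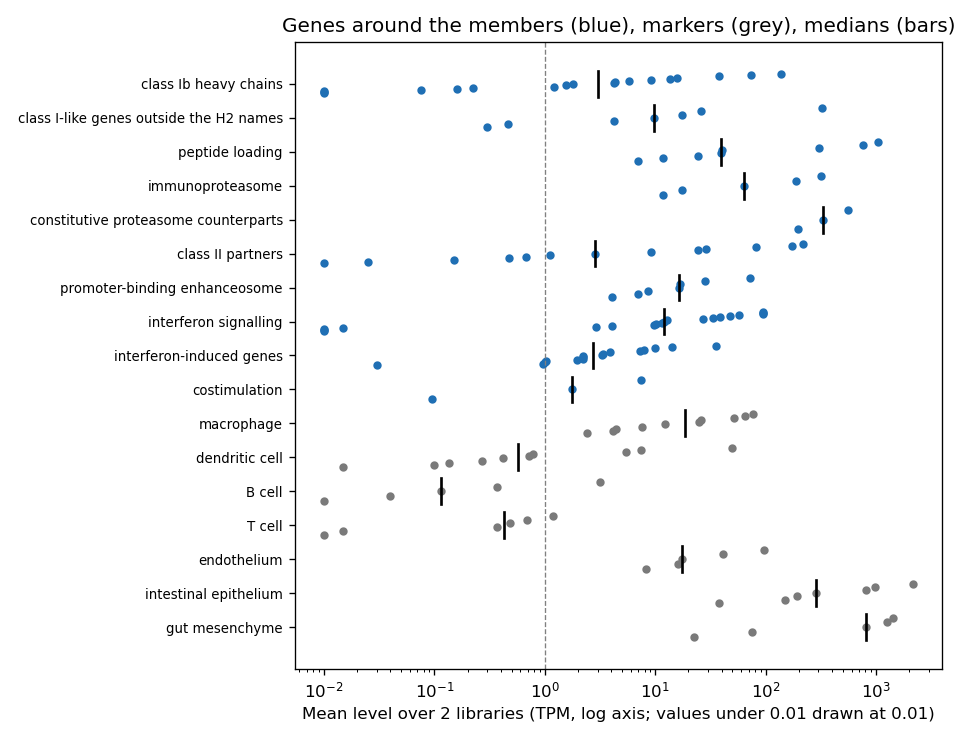
Mean TPM of each gene on a log axis for 10 lists around the presentation genes (blue) and 7 lists of cell type markers (grey), with black bars at list medians and a dashed line at a TPM of 1; values under 0.01 are drawn at 0.01. Peptide loading and proteasome genes lie wholly above 1, macrophage markers likewise, and T cell markers lie around or below it.

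Between the pools, no presentation gene reached the fold used for calling. A difference was called when a gene had a mean count of at least 100 and its ratio of TPM + 0.1, centred on the median gene, reached 1.5-fold. Of the 8 members with enough counts, 0 were called. Of 12885 protein-coding genes with enough counts, 1.90% were called higher in replicate 2 and 0.900% higher in replicate 1. Of the same 8, 7 were above 0 on the log2 scale, with a median of 0.15 (1.11-fold), beside a median of 0 over all genes by construction. The most different was H2-Eb1 at 0.24 with a counting error of 0.129, then B2m at 0.20 and H2-K1 at 0.19. Tap1 differed least, at 0.999-fold with a counting error of 0.086. When counts were scaled by TMM or DESeq2 factors, its log2 difference was 0.085 or 0.077.

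None of the 70 list genes with enough counts was called either. H2-Q1, a class Ib gene that shares 13.6% of its windows with other heavy chains, came closest at 7.49 and 10.9 TPM, a 1.47-fold difference, and passed 1.5-fold when counts were scaled by TMM or DESeq2 factors. H2-Q2 differed 1.36-fold and Fcgrt 1.37-fold, both higher in replicate 2, as was H2-Q10 at 1.17-fold. Among interferon-induced genes, 9 of the 10 with enough counts were higher in replicate 2, led by the transcription factor Irf7 at 1.41-fold. Of all protein-coding genes averaging 1 TPM or more, 6754 of 13509 were higher there. Lists unrelated to interferon leaned that way too: 6 of 7 epithelial and 4 of 5 mesenchymal markers. Others leaned towards replicate 1, with 2 of 7 DNA-binding partners and 0 of 3 standard proteasome subunits higher in replicate 2. An interferon difference between the pools was not tested. Below 100 counts, Ifit3 (2.06-fold, 29 and 62 counts), Cxcl10 (1.64-fold), Isg15 (1.61-fold) and H2-Bl (1.54-fold) passed 1.5-fold at a minimum of 20. All of these were higher in replicate 2. With no minimum, Cd1d2 passed as well, 1.61-fold higher in replicate 1. H2-Bl and Cd1d2 are annotated as polymorphic pseudogenes.

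**Figure D5:**
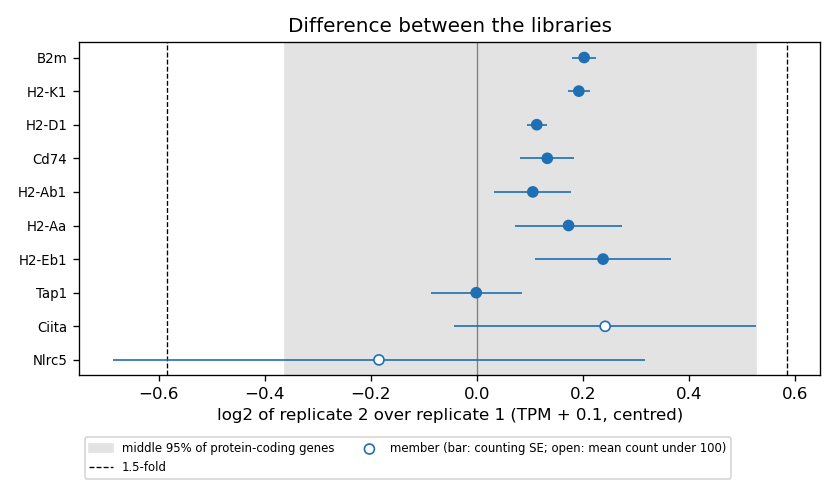
Log2 ratio of replicate 2 to replicate 1 for each of the 10 genes, on TPM + 0.1 and centred on the median gene; bars are the counting error, open points have a mean count under 100, the grey band is the middle 95% of 12885 genes and dashed lines mark 1.5-fold. All points lie inside the band, from -0.18 for Nlrc5 to 0.24 for Ciita.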

How the data were processed

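Total RNA sequencing of E16.5 intestine was deposited as a gene and a transcript table for each of 2 libraries. GENCODE M4 on mm10 was the reference, per the file headers and an accompanying text, and no source used here names the aligner or quantifier. The deposited expected counts are estimated, unnormalised reads per feature, and the deposited TPM correct them for effective length and for the library's total over genes and spike-ins. The percent values, also deposited, are transcript shares within a gene, and the bounds of the TPM intervals, which carry no stated level, were read as deposited scores. Of 43346 gene identifiers, 42462 (98.0%) matched GENCODE M21, which gave symbols, mm10 coordinates and gene types. Genes held 41279206 and 40758084 counts of 42040766 and 41480301, spike-ins 1.81% and 1.74%, and the 26248 features with numeric identifiers were left out.

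Levels, ratios and library differences were computed in Python 3.11.15 with pandas 2.3.3 on both libraries, with a pseudocount of 0.1 for differences and no test, since there is 1 group. Whether the pools share litters is not given, so SDs measure only the spread between these libraries, which may be technical. With 2 libraries an SD can by chance fall below the counting error. The members and lists were chosen with earlier results of these data known. The text names the 10 members, the genes of the fixed pairs, all genes of lists of 6 or fewer, the 3 highest and the lowest of longer lists, genes with no count, and the highest and lowest markers. A few more, named for their role, for being detected or for their library difference, were chosen after their values were seen. No genes were ranked by likeness of pattern, since 2 libraries give each gene 1 difference. A marker list that needs an item not reported here was left out. Of the lists, Gbp6 and H2-Ea had no identifier under those symbols. TMM factors (edgeR 4.0.16) and DESeq2 1.42.0 size factors, in R 4.3.3, served only as alternative scalings, beside other pseudocounts, minimums, posterior means and counts without length. The calling of differences was tried on simulated counts with an assumed spread and planted changes larger than the fold minimum. That checks the code and gives no error rate for these data.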

Additional observations from a re-analysis of the deposited data

How the results depend on the processing

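No paired analysis was possible because the series has 1 group. As reported, 245 protein-coding genes were called higher in replicate 2 and 116 in replicate 1, with 0 list genes. A pseudocount of 1 gave 75 in replicate 1. With no minimum count these were 859 and 796 with 5 list genes, with a minimum of 20 they were 429 and 324 with 4, and at 2-fold they were 65 and 50. TMM and DESeq2 factors each gave 1 list gene, H2-Q1. No member was called under any of these settings. At a detection level of 2 TPM, 1 costimulation gene was detected in place of 2. In CPM without length, 9 members reached a value of 1 in place of 8, Ciita being the addition. On that scale the log2 ratio of B2m to H2-K1 reversed to -0.26, and H2-K1 over H2-D1 at -0.30, H2-Eb1 over Tap1 at -1.16 and Ciita over Nlrc5 at 1.64 newly met the rule for apart, with the length correction as the only change. Nlrc5 stood at 0.36 by posterior means in place of 0.19, and the cause was not tested. Of the values for single genes, ratios and transcripts under all alternatives, 188 kept their call or moved by less than the spread between libraries. Another 20 moved further, 2 became stronger and 1 reversed, with some ratios counted also as their inverse. The 20 include the level of every member after rescaling over nuclear protein-coding genes, such as B2m at 421 TPM. The 188 include every such value with 1 library left out. With 2 libraries these could not move by more than that spread, so they say nothing about robustness. With 1 library left out no SD exists, so no pair could be called apart or not. Depth limits Nlrc5 and Ciita, which rest on 16 to 56 counts.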
